A study of Mus musculus with 4 samples.

Results

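The proteins described here are adipokines and other secreted products of fat cells, whose transcripts were measured in mouse left hemi-diaphragm. They comprise 8 genes (Adipoq, Cfd, Retn, Lep, Hp, Agt, Rarres2 and Nampt) and 1 further probe set that carries no gene name in the platform annotation used here, called the unnamed probe set. Of the 8 symbols, 7 had a probe set annotated to them and Cfd had none, which gave 11 named probe sets and 1 unnamed probe set, 12 of the 45101 on the array. The set was chosen from the measured difference between the synaptic and the non-synaptic region, with the values of these arrays known, so the differences of its members between the regions are given as a description without a test. The synaptic region is the band of the muscle that holds the nerve endings, and each region was measured on 2 arrays of total RNA. Titles number the arrays of each region 1 and 2. The sources used here do not give strain, age or sex, nor whether the arrays came from separate animals or pools, so any spread between arrays may be technical.

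Fat tissue is an endocrine organ, and its cells release peptide hormones, enzymes and acute-phase proteins into the blood. Adiponectin (Adipoq) circulates as multimers and acts on muscle and liver through its receptors, leptin (Lep) reports fat stores to the brain, and resistin (Retn) is released by fat cells in the mouse. Haptoglobin (Hp) binds free haemoglobin, angiotensinogen (Agt) is the precursor of angiotensin, chemerin (Rarres2) attracts leukocytes, and Nampt makes nicotinamide mononucleotide for NAD salvage. The liver is also a known source of Hp, Agt and Rarres2, neutrophils store haptoglobin, and Nampt is active in most cells.

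The deposited intensities are linear and had been brought to a common level on all arrays, with a median of 658 to 769 per array. Values below 158.891, the 20th percentile of all intensities, were treated as equal to that floor, and probe sets with a mean log2 intensity under 8.87, the 40th percentile, were not tested, which left 26480. An intensity under 468.519, the same 40th percentile on the linear scale, is called low here, and a fold against a region with both arrays low is a lower bound computed with low values raised to that level. As a measure of RNA quality, the 3' to 5' signal ratio of Gapdh was 1.03 in replicate 1 of the synaptic region and 0.814 to 0.853 in the other arrays. Arrays with the same replicate number resembled each other more than arrays of the same region: the median absolute log2 difference was 0.16 and 0.20 between regions within a number, and 0.30 and 0.35 between the arrays of a region.

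Adiponectin transcripts were near the floor in the synaptic region and well above it in the non-synaptic region. Adipoq, read from its only probe set, had intensities of 186 and 189 on the 2 synaptic arrays and of 9045 and 7243 on the 2 non-synaptic arrays. Both synaptic arrays were low, and both non-synaptic arrays lay far above them. The signal was at least 19.3-fold lower in the synaptic array of replicate 1 and at least 15.5-fold lower in that of replicate 2, and at least 17.3-fold lower over both. Between the 2 arrays of a region Adipoq differed by 0.03 on the log2 scale in the synaptic region and by -0.32, replicate 2 minus replicate 1, in the non-synaptic region.

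The unnamed probe set had a similar pattern. Its intensities were 189 and 188 on the synaptic arrays and 13000 and 15693 on the non-synaptic arrays, so both synaptic values were low and the signal was at least 30.5-fold lower in that region. The bound was 27.7-fold within replicate 1 and 33.5-fold within replicate 2. Over the 26480 probe sets tested, limma called 2 lower in the synaptic region at a Benjamini-Hochberg adjusted p under 0.05, which is 0.00755% of them. These were Adipoq and the unnamed probe set, for which the contrast was also the basis of choice, and nothing is read from that count. No probe set passed in either direction when either of the 2 non-synaptic arrays was left out.

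Resistin and haptoglobin were also lower in the synaptic region, with more spread between its arrays. Retn had intensities of 212 and 718 on the synaptic arrays and of 2235 and 2402 on the non-synaptic arrays, a log2 difference of -2.57 ± 0.61 (SE of the moderated fit, n = 2 arrays per region). The regions did not overlap, but only replicate 1 of the synaptic region was low. The synaptic signal of Retn was at least 4.77-fold lower in replicate 1 and 3.34-fold lower in replicate 2. When replicate 1 of the synaptic region was left out, the log2 difference of Retn was -1.69, and when replicate 2 was left out it was -3.45, a size that rests on the low value of replicate 1. Hp had intensities of 249 and 41.3 on the synaptic arrays and of 1544 and 1241 on the non-synaptic arrays. Both synaptic arrays of Hp were low and 1 of them was under the floor, so it was at least 2.95-fold lower in the synaptic region.

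Leptin was not measurable with confidence in either region. Lep had intensities of 25.8 and 44.6 on the synaptic arrays and of 74.5 and 279 on the non-synaptic arrays. All 4 values were low, 3 of them under the floor, and no fold is given. Lep was the member that did not pass the filter, so 11 of the 12 probe sets entered the fit.

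**Figure D1:**
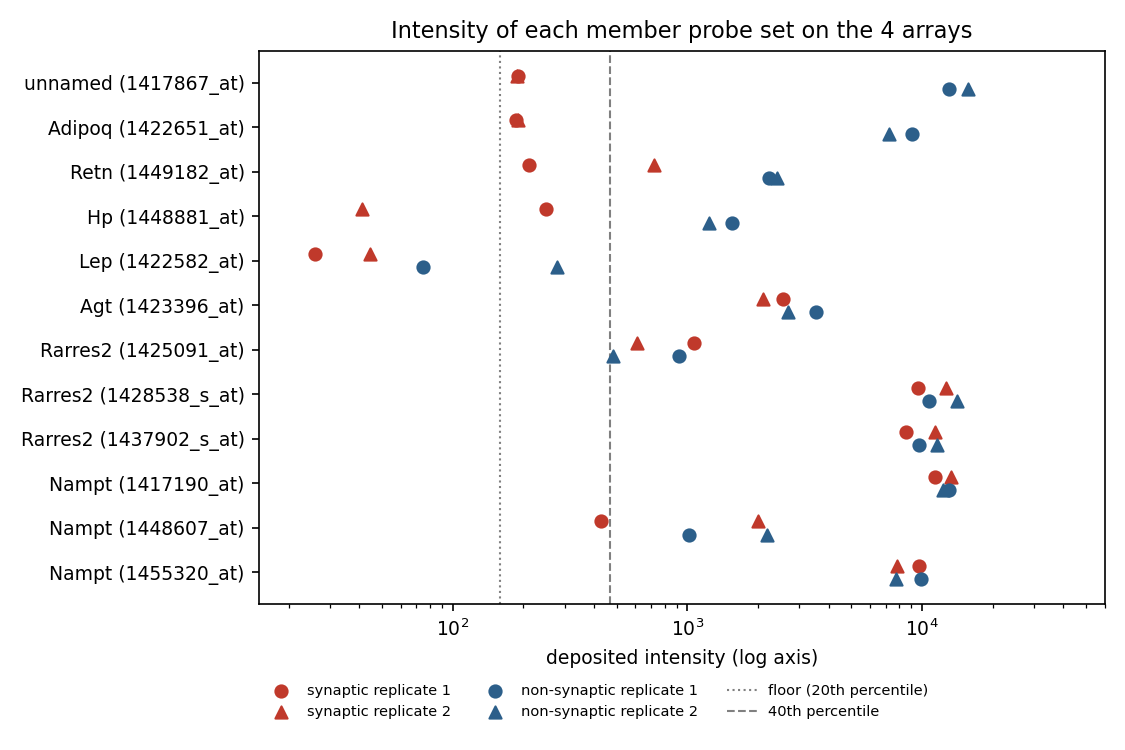
Deposited intensity (log axis) of the 12 member probe sets on each array, with red for synaptic and blue for non-synaptic arrays, circles for replicate 1 and triangles for replicate 2, and vertical lines at the 20th and 40th percentile of all intensities. The synaptic values of the unnamed probe set and of Adipoq lie between 186 and 189, far left of the non-synaptic ones, while those of Rarres2 and Nampt overlap with the non-synaptic ones.

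Angiotensinogen differed little between the regions. Agt had intensities of 2550 and 2098 on the synaptic arrays and of 3534 and 2672 on the non-synaptic arrays, a log2 difference of -0.41 ± 0.25 (SE). Both synaptic arrays lay below both others, by a small margin that was lost with quantile normalization and with centring on the array median. Within a replicate number the non-synaptic signal was 1.39 and 1.27 times the synaptic signal.

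Chemerin was read from 3 probe sets, which did not separate the regions. Probe set 1428538_s_at of Rarres2 had intensities of 9636 and 12587 on the synaptic arrays and of 10673 and 14132 on the non-synaptic arrays, a log2 difference of -0.16 ± 0.24 (SE). Probe set 1437902_s_at gave 8578 and 11402 against 9739 and 11565, a log2 difference of -0.10 ± 0.22. In both, replicate 2 was above replicate 1 in each region, and the regions overlapped. Probe set 1425091_at of Rarres2 went the other way, with 1064 and 611 on the synaptic arrays and 918 and 480 on the non-synaptic arrays, a log2 difference of 0.28 ± 0.48. In that probe set replicate 2 was below replicate 1 in each region.

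Nampt, read from 3 probe sets, overlapped between the regions in each of them. Probe set 1417190_at had intensities of 11305 and 13267 on the synaptic arrays and of 13020 and 12305 on the non-synaptic arrays, a log2 difference of -0.05 ± 0.18 (SE). Probe set 1455320_at gave 9738 and 7833 against 9850 and 7722, a log2 difference of 0.002 ± 0.22. Probe set 1448607_at, annotated to the same source sequence as the first, had 429 and 1996 on the synaptic arrays and 1017 and 2193 on the non-synaptic arrays, a log2 difference of -0.69 ± 0.81. Its low value was replicate 1 of the synaptic region, and in both regions replicate 2 was far above replicate 1, by 2.22 and 1.11 on the log2 scale. The mean over the 3 probe sets was -0.25.

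Over the 11 probe sets that passed the filter, 5 had both synaptic arrays below both others, none had both above, and 6 overlapped. Over all probe sets tested, 9.98% lay below in this way and 9.89% above, and 0.532% were above and at least 2-fold higher. The 5 were those of Adipoq, Retn, Hp and Agt and the unnamed one, and 4 of them were also at least 2-fold lower, against 0.287% of all probe sets tested. These counts describe the choice of members and are no support for it. The median log2 difference was -0.41 over these 11 and -0.01 over all probe sets tested. In bulk tissue, fewer cells of a type and less RNA per cell cannot be told apart.

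Set against each other, the differences by region and by replicate number divided the members. For Adipoq the log2 difference was -0.15 between replicate numbers, averaged over both regions, and for the unnamed probe set it was 0.13, both small beside their difference by region. For Hp it was -0.48 and for Retn 0.93. The value for Hp is understated in size, since its synaptic replicate 2, at 41.3, was raised to the floor. The synaptic values of Adipoq and of the unnamed probe set were low and near the floor. For Rarres2 the size of the difference by replicate number, 0.40, 0.33 and -0.87 for the 3 probe sets in the order above, was larger than that by region in each. The same held for probe set 1448607_at of Nampt, at 1.66, for 1455320_at, at -0.33, and for 1417190_at, at 0.07. For Agt it was -0.34, close to its difference by region. Over all probe sets tested the median absolute difference was 0.29 by replicate number and 0.14 by region. What the replicate number stands for is not given in the sources used here. It entered an alternative fit as a block, described at the end, but the difference between the numbers was itself not tested.

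**Figure D2:**
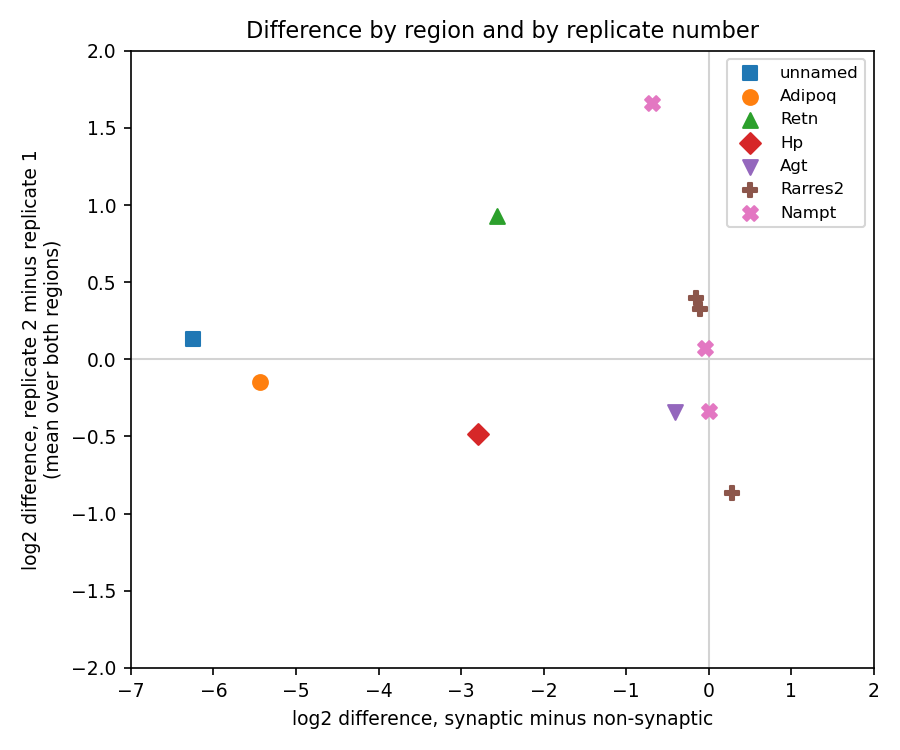
Log2 difference between regions (horizontal axis, synaptic minus non-synaptic) against log2 difference between replicate numbers (vertical axis, replicate 2 minus replicate 1, mean over both regions) for the 11 member probe sets that passed the filter. Adipoq and the unnamed probe set lie far to the left near 0 on the vertical axis, and the highest point is probe set 1448607_at of Nampt at 1.66.

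The sequences before the start sites of Adipoq, Retn and Lep are shown because the first pair was lower in the synaptic region and the last lay under the level that could be measured. Promoters were taken from RefSeq gene models on GRCm38.p6, where 6 of the 8 genes had an entry and Hp and Rarres2 had none. Printed are the 250 bases before the start, in lower case, with motif matches in capitals. They lie at chr16:23146286-23146535 for Adipoq, chr8:3655520-3655769 for Retn and chr6:29059971-29060220 for Lep, all on the plus strand.
Adipoq: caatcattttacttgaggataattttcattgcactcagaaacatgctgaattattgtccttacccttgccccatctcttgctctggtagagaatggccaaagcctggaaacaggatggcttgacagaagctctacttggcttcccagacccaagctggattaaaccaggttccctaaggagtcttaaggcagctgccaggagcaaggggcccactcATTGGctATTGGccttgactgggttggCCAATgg
Retn: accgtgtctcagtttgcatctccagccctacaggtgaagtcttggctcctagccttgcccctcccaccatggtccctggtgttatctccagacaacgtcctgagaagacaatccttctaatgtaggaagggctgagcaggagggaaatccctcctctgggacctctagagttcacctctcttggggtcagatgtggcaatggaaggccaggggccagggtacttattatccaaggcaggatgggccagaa
Lep: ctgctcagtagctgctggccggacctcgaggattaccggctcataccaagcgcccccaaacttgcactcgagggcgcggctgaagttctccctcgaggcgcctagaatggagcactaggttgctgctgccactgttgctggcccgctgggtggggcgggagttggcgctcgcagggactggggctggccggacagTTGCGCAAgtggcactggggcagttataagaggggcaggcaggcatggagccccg

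Matches were sought on both strands in windows of 300 bases, which include 50 bases after the start. The PPAR direct repeat, read by the fat cell regulator PPAR gamma with its partner RXR, was in 0 of the 6 member windows and in 0.381% of all 32851. The motif TTGCNNAA, read by C/EBP factors, was in 1 of the 6, that of Lep, 55 to 48 bases before the start, and in 10.8% of all windows. The CCAAT box, CCAAT, was added after the sequences were read. It occurred 3 times in the window of Adipoq, within 34 bases before the start, in none of the other 5, and in 37.4% of all windows, with 3 or more matches in 3.37%. A match is a description of the letters and not evidence of binding, and the absence of one in so short a window says nothing about these factors.

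Outside the members, the profile most like that of Adipoq over the 4 arrays belonged to Pck1, an enzyme of glyceroneogenesis and gluconeogenesis, and Ucp1, the uncoupling protein of brown fat. Likeness was the root mean square distance between log2 profiles after each gene's mean was removed, with the probe set of highest mean for each gene. The distance was 0.66 for Pck1 and 0.68 for Ucp1. Next came Cdo1, a cysteine dioxygenase, at 1.69, Cytl1, a small secreted protein, at 1.72, Rab11fip4, a partner of the small GTPase Rab11, at 1.79, and the cytochrome P450 Cyp2e1 at 1.81. Among the members the distance to Adipoq was 0.46 for the unnamed probe set, 1.34 for Hp and 1.56 for Retn, and it was 2.51 or more for the others. Values under the floor were raised to it first, which set both synaptic values of Pck1 and Ucp1 close to those of Adipoq. Their distances therefore depend in part on the floor. Cytl1 and Rab11fip4 were low on both synaptic arrays, so these too passed the filter only through the non-synaptic arrays. Being over 4 arrays, the distances rank profiles and carry no test.

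**Figure D3:**
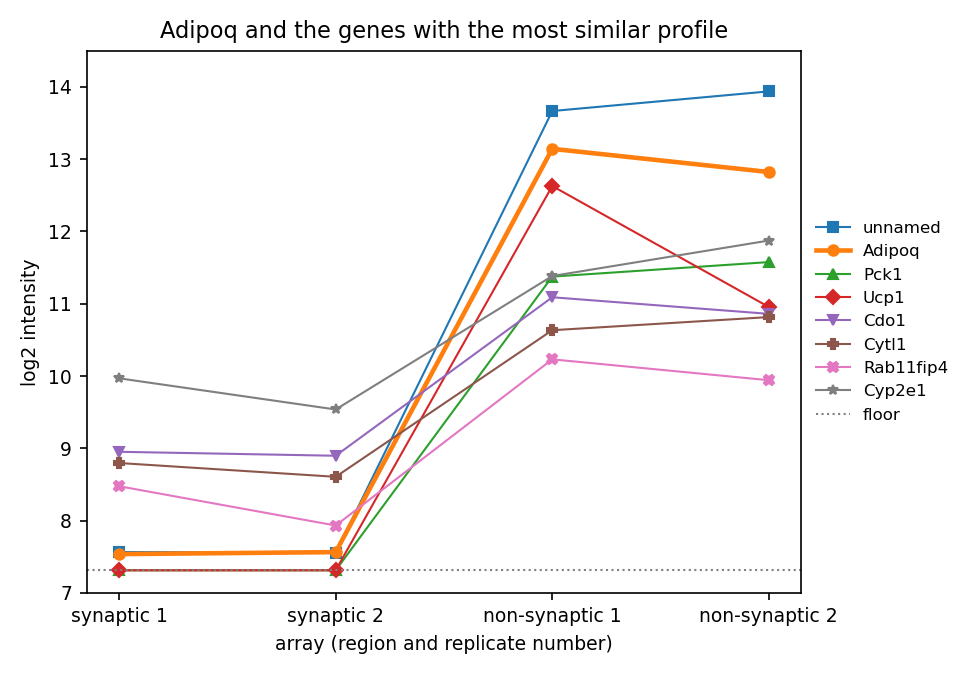
Log2 intensity, with values under the floor (dotted line) raised to it, of Adipoq, the unnamed probe set and the 6 genes with the smallest distance to Adipoq on each of the 4 arrays; lines only join the values of a gene. Each of the 8 profiles is lower on both synaptic than on both non-synaptic arrays, and Pck1 and Ucp1 are at the floor on both synaptic arrays.

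Genes that share a pathway with the members were read from 9 lists arranged by role, holding 104 genes, of which 82 passed the filter. None of the 82 passed the limma test in either direction when adjusted over all probe sets. With no adjustment, 1 was higher and 6 were lower at p under 0.05, while over all probe sets tested 0.653% were higher and 0.332% lower in this way, the background for the unadjusted counts that follow. Among the 6 lower were Pck1 and Ucp1, which passed the filter only through the non-synaptic arrays and so had to differ. Their synaptic values are both set to the floor and have no spread, so no p is given for them. Both synaptic arrays lay below both others for 20 of the 82, or 24.4%, and above for 9, or 11.0%, against 9.98% and 9.89% of all probe sets tested. At least 2-fold lower as well were 5, or 6.10%, against 0.287% of all. Pck1 and Ucp1 are counted among the 20 and among the 5. The lists were made with earlier results of these data known, so these shares are a description only. The median log2 difference over the 82 was -0.04.

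In the list of fat cell lipid and metabolic genes, 15 of 19 passed the filter, 0 were called by limma, with 0 higher and 4 lower at an unadjusted p under 0.05 (background 0.653% and 0.332%). Among the 4 was Pck1, which had to differ. The median log2 difference was -0.19, and it lay between -0.46 and -0.07 with 1 array left out, the lowest without synaptic replicate 1 and the highest without non-synaptic replicate 1. Pck1 had intensities of 18.5 and 35.04 on the synaptic arrays and of 2656 and 3053 on the non-synaptic arrays, at least 6.08-fold lower in the synaptic region. Of its other probe sets 1, low on both synaptic arrays, was at least 1.88-fold lower, and 1 lay under the floor on all arrays. The stearoyl-CoA desaturase Scd1 had 4216 and 4420 against 10185 and 14612, a log2 difference of -1.50 ± 0.24 (SE, limma adjusted p = 0.825), and -1.64 on its second probe set, where synaptic replicate 1 was low. The carbonic anhydrase Car3, at 12622 and 18006 against 28714 and 41398, differed by -1.19 ± 0.27. Of the other Car3 probe sets 1 differed by -1.60, 1, with both synaptic values low, was at least 2.14-fold lower, and 1 was low on all arrays. Thrsp, a regulator of lipid synthesis, differed by -0.61 ± 0.18, while its other probe sets gave -0.75 and, with the regions overlapping, 0.01. On the probe set with the highest mean, the regions did not overlap for these 4 genes.

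Other genes known from fat cells were also read. Fabp4, which carries fatty acids in fat cells and endothelium, had 111722 and 106280 on the synaptic arrays against 119239 and 118059, a log2 difference of -0.12 ± 0.13, with the regions apart by a small margin. Its other probe sets gave -0.18, with the regions apart, and -0.24 and -0.06, with the regions overlapping. Lpl, the lipoprotein lipase that muscle fibres also make, differed by 0.05 ± 0.15. The hormone-sensitive lipase Lipe, at 6857 and 3578 against 7759 and 4164, overlapped between the regions. The lipid droplet protein Cidec had 64.6 and 253 against 655 and 575 and did not pass the filter, and with both synaptic values low it was at least 1.31-fold lower. Plin1, Acsl1 and Adrb3 had no probe set annotated to them alone.

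Of the 9 brown fat genes 8 passed the filter, with a median log2 difference of -0.05 and 0 called by limma. At an unadjusted p under 0.05, 0 were higher and 1 was lower, against 0.653% and 0.332% of all. The 1 lower was Ucp1, which had to differ, so nothing is read from that count. With 1 array left out the median lay between -0.26, without synaptic replicate 2, and -0.01, without synaptic replicate 1. Ucp1 had intensities of 122 and 54.6 on the synaptic arrays and of 6332 and 1985 on the non-synaptic arrays, at least 7.57-fold lower in the synaptic region. Cidea, a lipid droplet protein of brown fat, had 6074 and 4540 against 11161 and 7012, a log2 difference of -0.75 ± 0.30. Elovl3, a fatty acid elongase, overlapped at 551 and 570 against 723 and 318. The cytochrome oxidase subunits Cox7a1 and Cox8b, also made by muscle fibres, differed by 0.07 each.

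Among 10 transcription regulators of fat cells, all of which passed the filter, the median log2 difference was -0.004, and limma called 0, with 0 higher and 1 lower at an unadjusted p under 0.05, against 0.653% and 0.332% of all. Cebpa, a C/EBP factor of mature fat cells, had 1135 and 1524 on the synaptic arrays against 3017 and 2442, a log2 difference of -1.04 ± 0.27. The nuclear receptor Nr1h3 differed by -0.57 ± 0.31, and in both genes the regions did not overlap. Pparg, the central regulator of fat cell formation, overlapped at 1309 and 919 against 1196 and 1442, and Cebpb and Cebpd differed by 0.03 and 0.11.

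Other secreted proteins of fat pointed in both directions. Of 25 genes 16 passed the filter, with a median log2 difference of -0.03 and 0 called by limma, and 1 higher and 0 lower at an unadjusted p under 0.05, against 0.653% and 0.332% of all. Retnla, a relative of resistin that macrophages also make, had 1523 and 2356 on the synaptic arrays against 2507 and 5623, a log2 difference of -0.99 ± 0.46. The retinol carrier Rbp4, at 382 and 812 against 850 and 1175, differed by -0.84 ± 0.47, and its synaptic replicate 1 was low. Lipocalin 2 (Lcn2), an iron-siderophore binder of fat cells and neutrophils, had 7358 and 2930 against 2757 and 1757, a difference of 1.08 ± 0.50. The Wnt antagonist Sfrp5 differed by 0.88 ± 0.29, while on its second probe set the regions overlapped. Both arrays of Retnla and Rbp4 in the synaptic region lay below both others, and those of Lcn2 and of Sfrp5, on its probe set with the highest mean, above.

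Receptors and processing enzymes of the members were read in the same way. Of 12 receptors and binding proteins 11 passed the filter, with a median of -0.08, from -0.53 to 0.24. The adiponectin receptors Adipor1 and Adipor2 differed by -0.08 ± 0.18 and -0.05 ± 0.18, and Cdh13, the cadherin that binds adiponectin multimers, by 0.14 ± 0.17. Of the other Cdh13 probe sets tested, 1 gave 0.11 and 1 gave -1.01, both with the regions overlapping. Cd163, the macrophage receptor for haptoglobin-haemoglobin complexes, had 1792 and 1943 on the synaptic arrays against 2674 and 2708, a log2 difference of -0.53 ± 0.21. The angiotensin receptor Agtr1a differed by -0.16 ± 0.19 and Agtr2 by 0.24 ± 0.25. Medians were 0.03 for 5 genes of adiponectin folding and export, 0.08 for 4 of renin-angiotensin processing, -0.13 for 5 of the alternative complement pathway and -0.15 for 8 of NAD synthesis. None of the tested genes in these 5 lists had an unadjusted limma p under 0.05, and 0 were called. Of the 17 lists read here, markers of other cells included, the medians of 12 changed sign when 1 of the arrays was left out, within -0.28 and 0.32. The 5 that kept their sign were the lists of fat cell lipid genes, brown fat, adiponectin folding and export, NAD synthesis and Schwann cells.

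**Figure D4:**
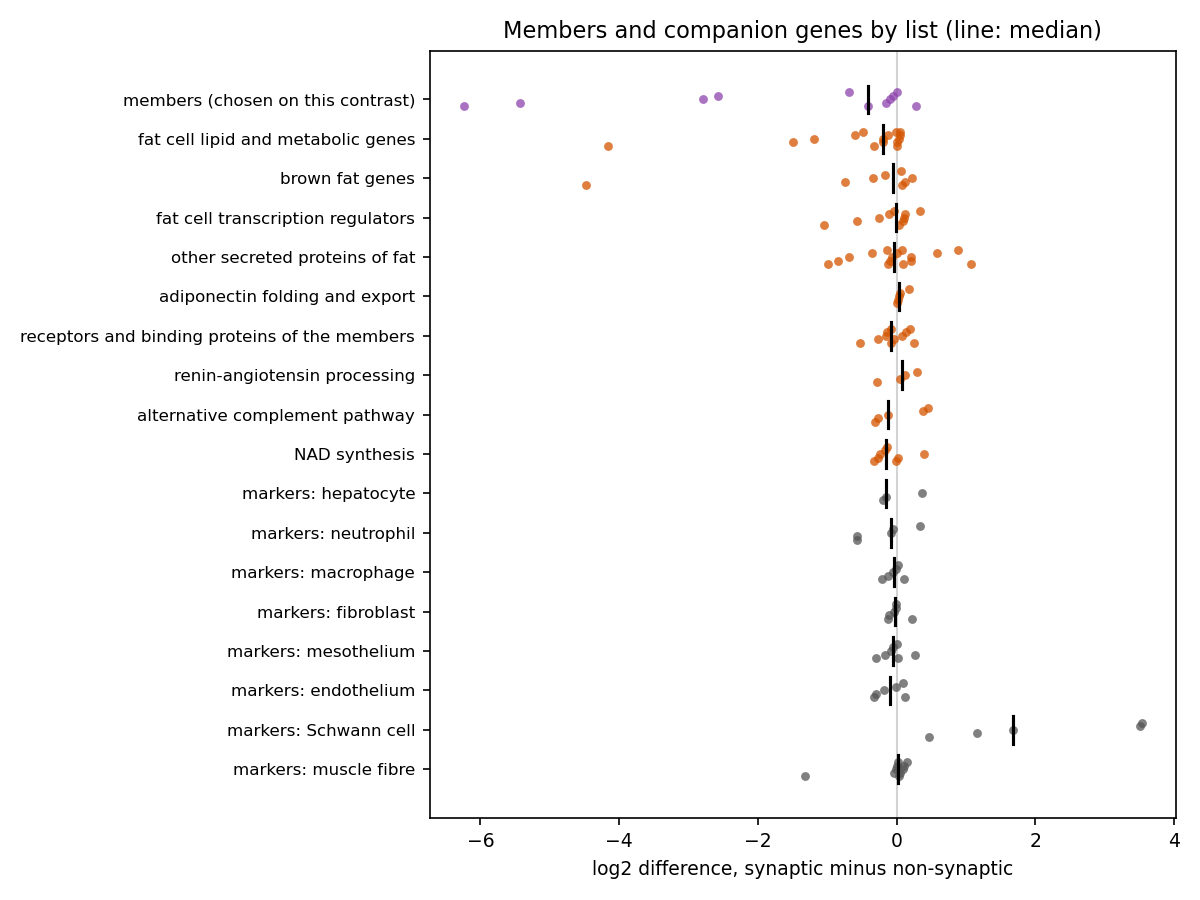
Log2 difference between regions (horizontal axis, synaptic minus non-synaptic) of the member probe sets and of each companion and marker gene that passed the filter, by list; each point is 1 probe set and the black line is the list's median. Medians of all lists but the members and Schwann cell markers lie between -0.19 and 0.08, with Pck1 and Ucp1 as single genes far to the left.

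Markers of other cells that the piece of muscle could hold were read beside these values, since some of those cells make the same proteins. Of 9 hepatocyte markers 3 passed the filter, and the summed intensity of all 9 was 2443 to 2666 in the synaptic and 2186 to 2818 in the non-synaptic region. Albumin (Alb) was at 564 and 450 against 697 and 450, and the fibrinogen chain Fgb was under the floor on all 4 arrays. Both synaptic arrays of Apoa2, at 714 and 743, lay above both others, at 612 and 521. Of 7 neutrophil markers 5 passed, with sums of 4548 to 5858 against 4759 to 7112, and Camp, a granule peptide, was under the floor on all 4. S100a8, at 2247 and 1346 against 2748 and 1180, and Ngp, at 1494 and 1210 against 1603 and 1272, overlapped between the regions. Both synaptic arrays of Ltf lay below both others, at a log2 difference of -0.57 ± 0.43, with synaptic replicate 2 low. Those of Mmp8 lay above, at 0.34 ± 0.34. All 6 macrophage markers passed, with sums of 25143 to 28776 against 26673 to 30099 and a median log2 difference of -0.03. In each of these 3 lists the summed levels of the regions overlapped, and limma called 0 genes, with 0 at an unadjusted p under 0.05. Compared within a replicate number, the synaptic sum was the lower in both numbers for the neutrophil and macrophage lists. For the hepatocyte list it was the lower in replicate 1 and the higher in replicate 2. The sums were not tested. Medians were -0.02 for 6 fibroblast, -0.06 for 7 mesothelial and -0.10 for 6 endothelial genes, and with 1 array left out they lay between -0.25 and 0.12, -0.19 and 0.11, and -0.28 and 0.17.

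Schwann cell markers were higher in the synaptic arrays, with a median of 1.68 over 5 of 8 genes, all with both synaptic arrays above, against 9.89% of all probe sets tested. Among the 5 was Ncmap, at 4182 and 5185 on the synaptic arrays against 429 and 374. Low on both non-synaptic arrays, Ncmap passed the filter only through the synaptic arrays and so had to lie above. The summed intensity was 103471 to 112725 against 29487 to 31158. Of these Mbp, myelin basic protein, rose by 3.50 ± 0.17 (SE, limma adjusted p = 0.0326), the 1 probe set of 26480 called higher, or 0.00378%. The other probe sets of Mbp gave differences from 0.23, where the regions overlapped, to 3.82. The limma adjusted p of Mbp was 0.336 when non-synaptic replicate 1 was left out and 0.149 when non-synaptic replicate 2 was. The 10 muscle fibre genes had a median of 0.02, with Myh4, the myosin of the fastest fibres, at -1.32 ± 0.18 (limma adjusted p = 0.492). On the second probe set of Myh4 the difference was -1.60, with the regions overlapping. The part of these cell types in the values of the adipokines was not tested.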

How the data were processed

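The deposited table holds 1 intensity per probe set and array on a linear scale, for 45101 probe sets on 4 arrays. The sources used here do not say how the authors scanned, summarised and scaled the arrays. Deposited intensities had a 2% trimmed mean of 2500.01 to 2500.02 on each array. This scaling was kept, and it would hide a shift common to most transcripts. Values under the 20th percentile were raised to it before log2. Probe sets with a mean under the 40th percentile of all log2 values, and 64 control probe sets, were left out. Symbols came from the platform annotation and were updated by Entrez identifier to RefSeq names (34754 of 34958 probe sets with 1 gene; 932 had several and 9211 none). Each companion gene was read from its probe set with the highest mean.

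The fit comparing the regions used limma 3.58.1 and R 4.3.3 (lmFit, eBayes with an intensity trend, 2-sided, Benjamini-Hochberg over 26480 probe sets), on 2 residual and 3.16 prior degrees of freedom. No exact permutation test was run, since with 2 arrays per region its smallest 2-sided p is 0.333. The scheme was tested on simulated data, but the outcome is not reported here and no statement rests on it. The number of arrays limits the precision. Members and companion lists were chosen with earlier results of these data known. Named companion genes were, per list, those called, up to 4 with the largest difference among those with separate regions, and up to 2 with the highest mean. This rule picked 59 genes, and only a part of them is printed in the text. Lipe, Cidec, Pparg, Elovl3, Fgb and Camp were named after their values were seen. Alternatives concerned scaling, floor, filter, variance prior, replicate block, log offset, probe sets and each array left out.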

Additional observations from a re-analysis of the deposited data

How the results depend on the processing

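Quantile normalization, no floor, an offset of 16 in place of a floor and a robust prior each gave 1 higher and 2 lower probe sets, the counts reported. Higher calls numbered 6 after median centring, 3 with the filter at the 60th percentile, and 0 without a filter or without an intensity trend. The lower count became 3 with median centring, 1 with the floor at the 40th percentile and 0 without a filter or a trend. Calls among the companion genes, 1 higher and 0 lower, became 2 and 1 (Pck1, whose synaptic values are both at the floor) with median centring, and the higher count 0 without a filter or a trend. With 1 array left out there were 0 to 6 higher and 0 to 5 lower probe sets, and from 0 to 1 higher and 0 to 2 lower companion genes, with the lone array of a region assumed to vary like those of the other. The cause was not tested. With the replicate number as a block, 56 probe sets were higher and 18 lower, and 4 and 6 of the companion genes. These genes included Mbp, higher, and Scd1, Myh4, Pck1 and Ucp1, lower, the last pair with both synaptic values at the floor. Arrays sharing a number deviated together (r = 0.63 across probe sets, which are not independent replicates), but nothing in the labels says that the number pairs them. Of 59 named companion genes, 10 passed in some setting, of which 0 changed sign, and 19 of the others changed sign. Low signal in the synaptic region limits the size that can be given for Adipoq, Hp and the unnamed probe set.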
